A study of Bactrocera dorsalis with 3 samples.

Results

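Embryos of Bactrocera dorsalis, the oriental fruit fly, were compared gene by gene, those aged 5-8 hours post-oviposition (hpo) against those aged 2-4 hpo. Each age was 1 whole-embryo library of messenger RNA, and a library of 0-1 hpo embryos of the same series was used for context. The labels give the age alone: strain, sex, any treatment and the number of embryos per library are not stated in them. A gene was compared if it reached an FPKM of 1 in either library, where FPKM is the number of fragments scaled to transcript length and to the library total. This held for 8142 of 13489 gene models. With 1 library per age there are no replicates, and sizes are described without a test. Every difference below separates these 2 libraries, and its relation to the spread between embryo collections is not known.

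An insect egg begins development on messenger RNA that its mother loaded into it. In the maternal-to-zygotic transition the embryo destroys much of this supply and starts to transcribe its own genome. In Drosophila, where the process is best known, the first genes to be transcribed are often short and free of introns, and a broad activation of the genome follows around the time when cell membranes enclose the nuclei. Gastrulation and the first steps of tissue patterning come after it. Messenger RNA was caught here by its poly-A tail, so a longer or shorter tail can alter a value at an equal amount of RNA. In whole embryos, fewer cells of a type and less RNA per cell cannot be told apart.

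Counted reads numbered 74817640 at 5-8 hpo and 65069185 at 2-4 hpo. Finding 0 reads allows a level of up to 0.0401 RPM (reads scaled to the library total) at 5-8 hpo and 0.0461 RPM at 2-4 hpo, the value of 3 reads. Reads from the mitochondrial genome were 2.18% of the total at 5-8 hpo and 1.96% at 2-4 hpo. The 100 most abundant genes took 23.6% of the reads at 5-8 hpo and 26.7% at 2-4 hpo, and 78 genes were in both sets of 100. No gene that dates a fly embryo could be matched by name, so the ages are taken from the labels. Eye opsin Rh1 had 0 reads at either age, and the yolk protein gene VIT1 stood at an FPKM of 1.13 at 5-8 hpo and 3.02 at 2-4 hpo.

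On log2(FPKM + 1), a scale that understates the difference of low genes, 1121 genes were at least 4-fold higher at 5-8 hpo, 13.8% of those compared. Another 513 were at least 4-fold lower, 6.30%. Higher genes thus made up 68.6% of the genes past 4-fold. At 2-fold the counts were 2471 higher, 30.3%, and 1719 lower, 21.1%, while 3952 genes lay within 2-fold. The surplus of higher genes grew with the size of the difference. There were 1.25 higher genes for each lower one at 1.5-fold, 2.19 at 4-fold and 4.83 at 16-fold, where 174 genes were higher and 36 lower. Past 64-fold stood 23 higher genes and 1 lower gene. The middle of the distribution lay close to 0: the median log2 difference was 0.11, and the central 50% of genes lay between -0.83 and 1.26. Over the 6745 genes at FPKM 1 or more in both libraries the median on log2 FPKM, with no pseudocount, was -0.05, so the sign of the median depends on which genes are counted and on the scale. Among genes past 4-fold that stayed at FPKM 1 or more at the age where they were lower, 653 were higher at 5-8 hpo and 454 lower.

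**Figure D1:**
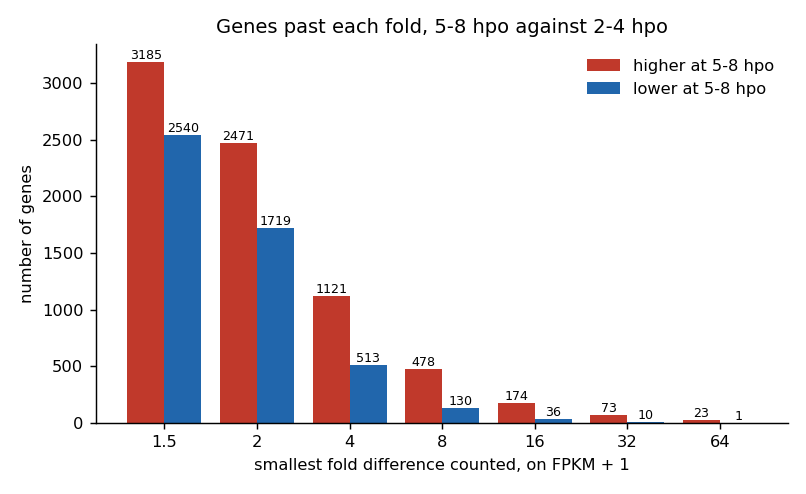
Number of genes higher (red) and lower (blue) at 5-8 hpo than at 2-4 hpo past each fold difference, counted on FPKM + 1, 1 library per age. At every fold drawn the higher genes outnumber the lower ones, with 1121 against 513 at 4-fold and 23 against 1 at 64-fold.

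Genes past 4-fold in opposite directions had median levels on opposite sides of that of all genes compared. The levels at 2-4 and 5-8 hpo define these sets, so much of the contrast at these ages is built into the selection. The 1121 higher genes had a median FPKM of 28.4 at 5-8 hpo and 2.08 at 2-4 hpo. The 513 lower genes had a median FPKM of 5.83 at 5-8 hpo and 44.97 at 2-4 hpo, against 19.7 and 17.9 at the same ages for all genes compared. In the 0-1 hpo library the medians were 3.42 for the higher and 59.7 for the lower genes, nearer to those at 2-4 hpo than at 5-8 hpo. Together the higher genes took 18.5% of all reads at 5-8 hpo and 2.26% at 2-4 hpo. The lower genes took 2.01% at 5-8 hpo and 12.8% at 2-4 hpo. The smallest read count on the larger side of a 4-fold difference was 89, and the median was 4849.5. The smaller count sets the width of the interval, which is wide where 1 age has few or no reads.

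**Figure D2:**
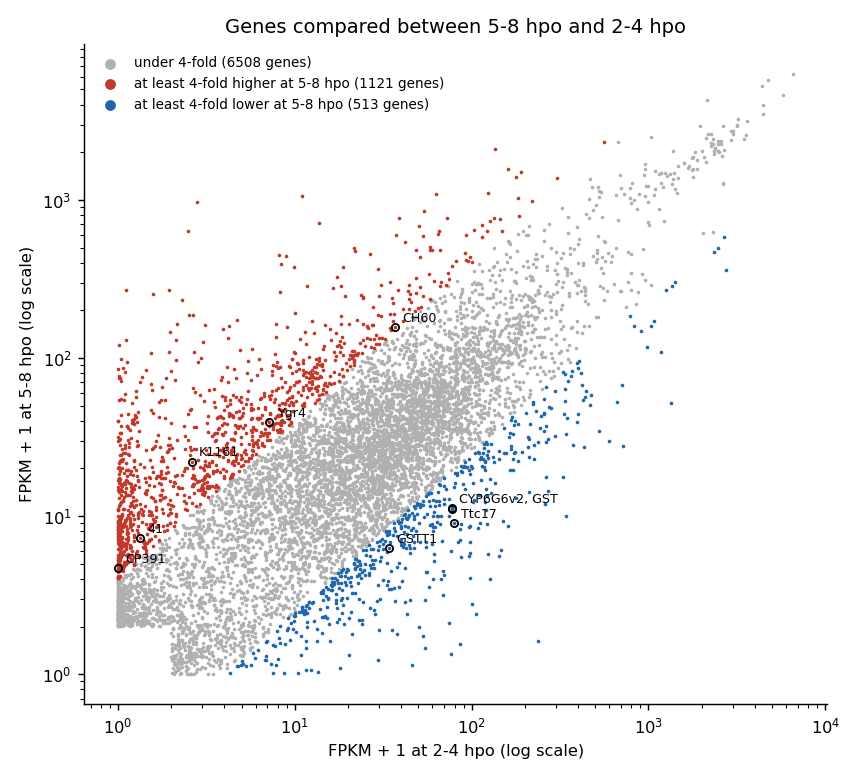
FPKM + 1 of each of the 8142 compared genes at 5-8 hpo (vertical) and at 2-4 hpo (horizontal), both on log axes, with genes at least 4-fold higher in red and at least 4-fold lower in blue; open circles mark the 9 named genes past 4-fold. Red points fill the low end of the horizontal axis, and blue points lie mostly at FPKM above 10 at 2-4 hpo.

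Sorted by their level at 2-4 hpo, genes passed 4-fold upward less and less often, and downward more often, as that level grew up to FPKM 500. Among 1028 genes below FPKM 1 at 2-4 hpo, 45.5% were at least 4-fold higher at 5-8 hpo. None of these could be 4-fold lower, since they entered the comparison by their level at 5-8 hpo. Of 1238 genes between FPKM 1 and 5, 22.7% were 4-fold higher and 0.808% lower. The shares crossed between FPKM 10 and 50, where 6.03% of 3051 genes were higher and 7.34% lower. At FPKM 100 to 500, 2.23% of 761 genes were higher and 16.3% lower, and among the 164 genes above that 0.610% were higher and 12.2% lower. The level at 2-4 hpo enters the difference itself, so part of this slope is built into the sorting.

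Long genes were 4-fold higher more often than short ones. Of 219 models that span 100 kb or more on their scaffold, introns included, 22.4% were at least 4-fold higher and 9.59% lower. Of 2316 models of 2 to 5 kb, the size with the smallest share of higher genes, 11.4% were higher and 5.79% lower. Models shorter than 1 kb stood between, with 14.0% of 963 higher and 5.50% lower. The share of lower genes was thus also largest among the longest models.

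**Figure D3:**
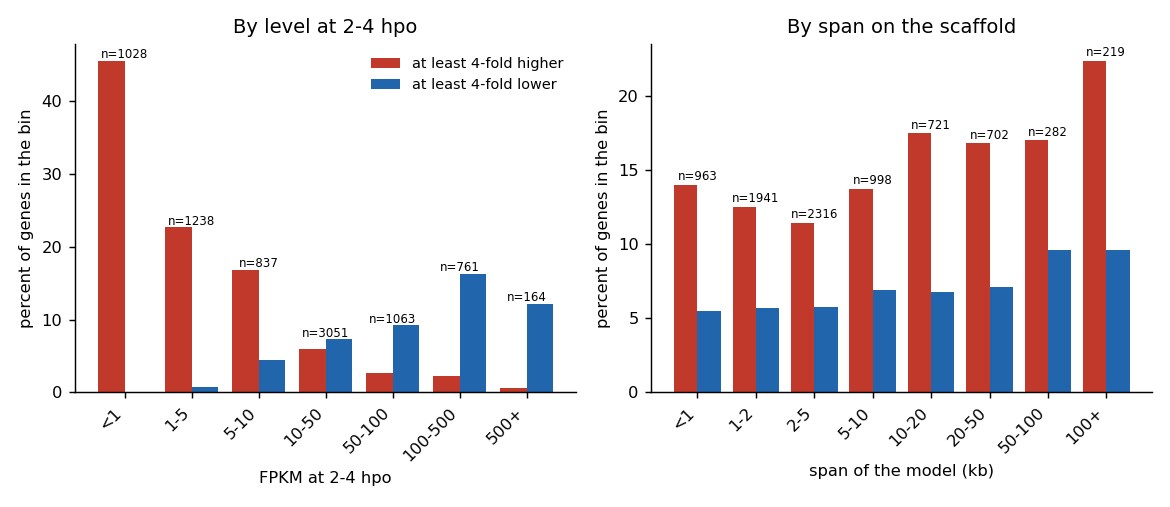
Percent of genes at least 4-fold higher (red) and at least 4-fold lower (blue) at 5-8 hpo than at 2-4 hpo, by FPKM at 2-4 hpo (left) and by the span of the gene model (right), with the number of genes in each bin. The higher share drops from bin to bin on the left, 45.5% to 0.610%, and peaks at 22.4% among models of 100 kb or more on the right.

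A total of 415 genes reached FPKM 5 at 5-8 hpo after a level below 1 at 2-4 hpo. Their median FPKM was 11.98 at 5-8 hpo and 0.181 at 2-4 hpo, and 28 of them had no read at 2-4 hpo. Most were also low in the youngest embryos: 373 were below FPKM 1 at 0-1 hpo, and 42 were at or above it. Over all 8142 genes compared, 1184 were below FPKM 1 at 0-1 hpo. How many of all genes low at 2-4 hpo were also low at 0-1 hpo was not counted. Single-exon models, in which the span equals the exonic length, made up 13.3% of the 415 genes, and models of 50 kb or more 13.7%. Over all compared genes those shares were 8.33% and 6.15%. The set thus held a larger share of intronless models and of very long ones than the compared genes as a whole.

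The opposite crossing was rarer. At FPKM 5 or more at 2-4 hpo and below 1 at 5-8 hpo stood 57 genes, with a median FPKM of 0.614 at 5-8 hpo and 8.70 at 2-4 hpo. Of these, 43 were at or above FPKM 1 at 0-1 hpo and 14 below it. Single-exon models made up 22.8% of the 57 and models of 50 kb or more 10.5%. Both shares also exceeded those of all compared genes, 8.33% and 6.15%, so neither excess was particular to the upward crossing. None of the 513 genes past 4-fold lower was without reads at 5-8 hpo, while 42 of the 1121 higher genes were without reads at 2-4 hpo. The 2-4 hpo library was the shallower one, and 0 reads do not show that a transcript was absent.

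The 10 largest gains on the log2 scale were in genes known by identifier alone. No read at 0-1 hpo was found for 9 of the 10, and for 445 of all 8142 genes compared. The largest gain was in LOC105227214, a protein-coding single-exon model of 655 bases on the minus strand of scaffold NW_011875868.1, positions 38910 to 39564. It had 47579 reads and FPKM 971 at 5-8 hpo, against 77 reads and FPKM 1.81 at 2-4 hpo. The ratio of FPKM was 537, with a 95% exact interval of 430 to 681 that, like all intervals here, covers counting error only. Next came LOC105224159, also single-exon, on the plus strand of NW_011876298.1 from 95184 to 96274. It had 51551 reads and FPKM 632 at 5-8 hpo, against 106 reads and FPKM 1.49 at 2-4 hpo, a 423-fold difference (350 to 517). Another protein-coding model, LOC109579409, lies on the same strand of that scaffold at 114430 to 115197 and had an FPKM of 252 at 5-8 hpo and 0.581 at 2-4 hpo. The most abundant of the 10 at 5-8 hpo was LOC105225818, with 70961 reads and FPKM 1064 at 5-8 hpo, against 575 reads and FPKM 9.92 at 2-4 hpo, 107-fold higher (98.9 to 117). It too had no read at 0-1 hpo.

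From below FPKM 1 at 2-4 hpo, 8 genes reached 100 or more at 5-8 hpo. Novel00193, a model without a gene number on the minus strand of NW_011876129.1 (73202 to 74416), had 5646 reads and FPKM 270 at 5-8 hpo, against 2 reads and FPKM 0.110 at 2-4 hpo. LOC105229981 had 7364 reads and FPKM 120 at 5-8 hpo, against 1 read and FPKM 0.0188 at 2-4 hpo. With so few reads at 2-4 hpo the ratios are loose, 2455 (679 to 20278) for Novel00193 and 6404.5 (1149 to 252998) for LOC105229981. The ratio of LOC105232308, at 270 FPKM at 5-8 hpo and 0.945 at 2-4 hpo, is tighter, 286-fold (236 to 349). This model overlaps another on the same strand, and how reads in the shared bases were counted is not known. LOC105229981 overlaps a model on the other strand, and no source used here gives the strand setting of the counting, so reads of such partners cannot be told apart. Of the 1634 genes past 4-fold in either direction, 302 have such a partner. These were 19.3% of the higher and 16.8% of the lower genes, beside 21.9% of all genes compared.

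The 10 largest gains in FPKM were in genes that stood between 9.92, in LOC105225818, and 2133 at 2-4 hpo. LOC105231497 gained most, at an FPKM of 4288 at 5-8 hpo against 2133 at 2-4 hpo, 2.01-fold higher (2.00 to 2.02). LOC105228724, a protein-coding gene on NW_011876374.1, was at 2101 at 5-8 hpo against 135 at 2-4 hpo, 15.6-fold higher (15.3 to 15.9). LOC105229632 was at 1559 at 5-8 hpo against 160 at 2-4 hpo, 9.76-fold higher (9.58 to 9.95). LOC105229596 showed a dip between the ages, with 1025 FPKM at 0-1 hpo, 303 at 2-4 hpo and 1373 at 5-8 hpo. Together, the 10 genes with the largest gains in FPKM, all without an informative name, took 2.68% of all reads at 5-8 hpo and 0.750% at 2-4 hpo, and 7 of them were past 4-fold.

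The gene lowest at 5-8 hpo relative to 2-4 hpo on the log2 scale was LOC105227927, which the gene table types as a pseudogene (plus strand of NW_011876365.1, 1801225 to 1802599). It had 64 reads and FPKM 0.622 at 5-8 hpo, against 21041 reads and FPKM 235 at 2-4 hpo, 378-fold lower (296 to 491). At 0-1 hpo it had no read, so it passed FPKM 1 in the 2-4 hpo library alone. A pseudogene can share reads with the gene it copies, and its level is uncertain for that reason. Of the 10 largest differences in this direction, 7 had no read at 0-1 hpo, 5 were single-exon and 3 were models without a gene number. Over all 8142 genes compared, 445 had no read at 0-1 hpo. Most of the 10 transcripts were thus high at 2-4 hpo and low both before and after it.

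Neighbouring models were among them. Novel00214 and Novel00215 lie on the minus strand of NW_011876205.1, at 392326 to 395113 and 397945 to 399405. Novel00214 had an FPKM of 0.350 at 5-8 hpo and 75.6 at 2-4 hpo, and Novel00215 one of 2.97 at 5-8 hpo and 127 at 2-4 hpo. LOC105232945 and Novel00186 lie next to each other on opposite strands of NW_011876086.1, at 12773 to 14131 and 15329 to 18337. Their FPKM was 0.551 and 1.79 at 5-8 hpo, against 84.4 and 99.5 at 2-4 hpo. All 4 were listed with no read at 0-1 hpo.

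The other 3 of the 10 were present in the youngest embryos and low at 5-8 hpo. LOC105232989 had 147 FPKM at 0-1 hpo, 105 at 2-4 hpo and 1.39 at 5-8 hpo, 74.99-fold lower at 5-8 than at 2-4 hpo (63.4 to 89.3). LOC105227710 had 356, 339 and 9.05 FPKM in the same order, 37.5-fold lower (35.7 to 39.4). LOC105224178 had 98.4 at 0-1 hpo, 73.1 at 2-4 hpo and 1.10 at 5-8 hpo. In each of them the step between the earlier ages was small beside the later one. LOC105227710 and LOC105224178 overlap a model on the other strand, whose reads cannot be told apart from theirs.

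Of the 10 genes with the largest losses in FPKM, 9 had been higher at 2-4 hpo than at 0-1 hpo. They were picked by their level at 2-4 hpo over that at 5-8 hpo, which favours a peak at 2-4 hpo. The share of all genes higher at 2-4 than at 0-1 hpo was not computed. LOC105231189 had 1412 FPKM at 0-1 hpo, 2747 at 2-4 hpo and 360 at 5-8 hpo, 7.62-fold lower at 5-8 than at 2-4 hpo (7.56 to 7.68). It overlaps a model on the same strand, and how reads in the shared bases were counted is not known. In the same order of ages, LOC105231947 had 1579, 2671 and 582, and LOC105225443 had 1578, 2484 and 498. Novel00371 took the other course, with 1789 at 0-1 hpo, 1336 at 2-4 hpo and 51.2 at 5-8 hpo, a level 26.1-fold below that at 2-4 hpo (25.1 to 27.1). Together the 10 genes took 1.25% of reads at 5-8 hpo and 4.14% at 2-4 hpo.

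An informative name was found for 76 genes, of which 68 were compared. Past 4-fold were 5 higher genes (7.35%) and 4 lower genes (5.88%), against 13.8% and 6.30% of all genes compared. At 2-fold the counts were 13 higher and 16 lower of 68, where 30.3% and 21.1% of all genes were. The median log2 difference was 0.02 beside 0.11 over all genes compared. Named genes are few and include the 13 protein genes of the mitochondrial genome, so they say little about the genes without a name.

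Of the protein folding genes, CH60 and DNAJ1 were past 2-fold higher. CH60, the mitochondrial chaperonin Hsp60, had 155 FPKM at 5-8 hpo against 35.9 at 2-4 hpo, 4.33-fold higher (4.19 to 4.47). DNAJ1, an Hsp40 co-chaperone, had 82.6 at 5-8 hpo against 25.1 at 2-4 hpo, 3.29-fold higher (3.16 to 3.42). The 0-1 hpo library exceeded both ages, with 257 FPKM for CH60 and 323 for DNAJ1. DJB12 and DNJC8, further members of the DnaJ family, were within 2-fold, at log2 differences of 0.30 and 0.15. Of the 4 chaperone genes matched, these 2 were past 2-fold higher and none lower, where 30.3% and 21.1% of all genes were, and the median log2 difference was 0.99 beside 0.11. With 4 genes this is not far from the background.

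Rab GTPases, switches that direct vesicles between membrane compartments, differed among themselves. Rab1a, which acts between endoplasmic reticulum and Golgi, had 683 FPKM at 5-8 hpo against 209 at 2-4 hpo, 3.26-fold higher (3.22 to 3.31). Rab5b, of the early endosome, had 99.4 at 5-8 hpo against 26.1 at 2-4 hpo, 3.81-fold higher (3.65 to 3.96). Rab40 was at 53.5 at 5-8 hpo against 24.3 at 2-4 hpo, 2.20-fold higher (2.08 to 2.33). Rab7, of the late endosome, was at 116 at 5-8 hpo and 143 at 2-4 hpo, within 2-fold. Rab35, which serves endocytic recycling and was outside the list, was 2.73-fold lower (2.64 to 2.83), at 38.1 at 5-8 hpo and 104 at 2-4 hpo. Of the 4 genes on the list, which leaves out Rab35, 3 were past 2-fold higher, beside 30.3% of all genes compared, with a median log2 difference of 1.40 beside 0.11. The 5 Rab genes named thus included differences in each direction.

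Akt1 and Irs1, which lie on the same insulin signalling path, differed in opposite directions. Akt1, the kinase at its centre, had 146 FPKM at 5-8 hpo against 47.7 at 2-4 hpo, 3.07-fold higher (3.00 to 3.13). Irs1, the adaptor that couples the receptor to the path, had 12.1 at 5-8 hpo against 45.2 at 2-4 hpo, 3.73-fold lower (3.57 to 3.896). Taiman, which in Drosophila is a coactivator of the ecdysone receptor, had 8.61 at 5-8 hpo against 1.79 at 2-4 hpo, 4.80-fold higher (4.49 to 5.15) as a ratio of FPKM and 1.78 on log2(FPKM + 1). It had stood at 7.98 FPKM at 0-1 hpo, so its level at 5-8 hpo was near the starting one.

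The 4 detoxification genes that entered the comparison were lower. CYP6G6v2, a cytochrome P450, had 10.2 FPKM at 5-8 hpo against 76.4 at 2-4 hpo, 7.53-fold lower (7.12 to 7.97), after 377 at 0-1 hpo. The glutathione transferase GST had 10.2 at 5-8 hpo against 76.2 at 2-4 hpo, 7.46-fold lower (6.93 to 8.03). GSTT1, a theta-class member of the same family, had 5.24 at 5-8 hpo against 33.0 at 2-4 hpo, 6.29-fold lower (5.61 to 7.08). NCPR, the reductase that passes electrons to P450 enzymes, had 106 at 5-8 hpo against 311 at 2-4 hpo, 2.93-fold lower (2.88 to 2.98). Of 5 genes matched to this list, 4 were compared, 3 were past 4-fold lower and all 4 past 2-fold, beside 6.30% and 21.1% of all genes, with a median log2 difference of -2.61 beside 0.11. The remaining one, EST3A, was below FPKM 1 at both ages and went the other way, with 113 reads and FPKM 0.827 at 5-8 hpo, against 35 reads and FPKM 0.294 at 2-4 hpo.

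The superoxide dismutases, which remove superoxide, differed from each other. SODC had 330 FPKM at 0-1 hpo, 54.1 at 2-4 hpo and 14.2 at 5-8 hpo, 3.81-fold lower at 5-8 than at 2-4 hpo (3.52 to 4.12). Zn-CuSOD had 11.2 at 5-8 hpo and 12.2 at 2-4 hpo, and the interval of its ratio includes 1. FRI, a ferritin that stores iron, was within 2-fold, at 232 at 5-8 hpo and 190 at 2-4 hpo.

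**Figure D4:**
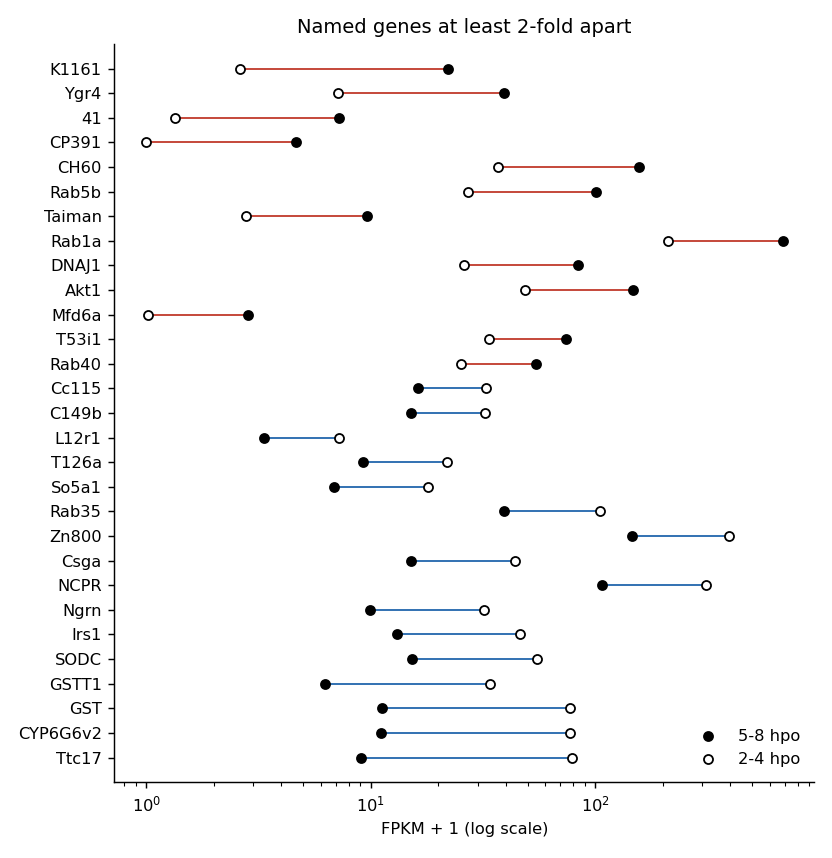
FPKM + 1 (log axis) of the 29 named genes at least 2-fold apart, at 5-8 hpo (filled) and 2-4 hpo (open), 1 library each, with red lines for genes higher and blue lines for genes lower at 5-8 hpo. The red genes run from K1161 to Rab40 and the blue ones from Cc115 to Ttc17, with Rab35 and 4 detoxification genes among the blue.

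Genes for DNA-binding proteins showed each direction. Zn800, a zinc finger gene, had 126 FPKM at 0-1 hpo, 394 at 2-4 hpo and 145 at 5-8 hpo, 2.72-fold lower at 5-8 than at 2-4 hpo (2.68 to 2.75). Adf1, named for a Drosophila transcription factor, had 22.6 at 5-8 hpo against 11.0 at 2-4 hpo, 2.06-fold higher (1.93 to 2.19) and just under 2-fold on log2(FPKM + 1). E4f1 was within 2-fold, at 4.79 at 5-8 hpo and 6.98 at 2-4 hpo. Bab2, a BTB-domain transcription factor gene in Drosophila, was low at both ages, at 1.96 at 5-8 hpo and 1.52 at 2-4 hpo.

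Ttc17, a gene for a protein with tetratricopeptide repeats, was the named gene furthest below its 2-4 hpo level. It had 8.05 FPKM at 5-8 hpo against 78.0 at 2-4 hpo, 9.70-fold lower (9.19 to 10.2), after 75.2 at 0-1 hpo. K1161 had the largest gain on log2(FPKM + 1) among the named genes, though not the largest ratio of FPKM, at 21.1 FPKM at 5-8 hpo against 1.61 at 2-4 hpo, 13.1-fold higher (11.8 to 14.5). Ygr4, a single-exon gene, had 38.2 at 5-8 hpo against 6.19 at 2-4 hpo, 6.18-fold higher (5.56 to 6.89). All of these 3 overlap a model on the other strand, as do Ngrn, Csga, L12r1 and Cc115 among the named genes past 2-fold. Of the named genes within 2-fold that are described here, DNJC8, Rab7, Zn-CuSOD, Adf1, E4f1, Bab2, Nhk1, TREA and Prkra do so too. CP391 had 782 reads at 5-8 hpo and none at 2-4 hpo, at least 227-fold higher against 3 reads. The gene listed as 41 had 2921 reads and FPKM 6.26 at 5-8 hpo, against 137 reads and FPKM 0.337 at 2-4 hpo, 18.5-fold higher (15.6 to 22.2). Mfd6a had 554 reads and FPKM 1.84 at 5-8 hpo, against 5 reads and FPKM 0.0191 at 2-4 hpo, so its 96.4-fold ratio (41.0 to 298) rests on a low level at both ages. T53i1 had 72.8 FPKM at 5-8 hpo and 32.6 at 2-4 hpo. So5a1, an organic anion transporter gene, had 5.85 at 5-8 hpo against 17.0 at 2-4 hpo, 2.91-fold lower (2.78 to 3.06). The remaining named genes past 2-fold, Ngrn, Csga, T126a, L12r1, C149b and Cc115, were lower at log2 differences between -1.69 and -1.01.

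Other named genes were close to level. The 13 mitochondrial genes all lay within 2-fold, with log2 differences between -0.60 for ATP8 and 0.63 for ND4, 7 above 0 and 6 below. ATP8, ND4, ATP6 and ND4L each overlap a model on the same strand, and how reads in the shared bases were counted is not known. ATP8, a model of 162 bases, had 193 reads at 5-8 hpo and 260 at 2-4 hpo. The sign of ND1, at -0.03, turned under median-of-ratios scaling. COX3 and COX1, subunits of cytochrome c oxidase, had 5725 and 5277 FPKM at 5-8 hpo, against 4746 and 4378 at 2-4 hpo. Dcp1b, of the mRNA decapping complex, had 53.7 FPKM at 5-8 hpo and 52.5 at 2-4 hpo, its interval includes a ratio of 1, and its sign turned on the TPM scale, in which each library is scaled to a common sum of length-corrected values. The splicing regulator tra-2 had 91.9 at 5-8 hpo and 122 at 2-4 hpo. Nhk1, a histone kinase in Drosophila, had 51.3 at 5-8 hpo and 38.1 at 2-4 hpo. Trehalase TREA had 34.0 FPKM at 5-8 hpo and 45.9 at 2-4 hpo, and Prkra, named for an activator of a kinase that binds double-stranded RNA, 45.8 at 5-8 hpo and 30.0 at 2-4 hpo.

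The 33 gene lists covered processes of the early fly embryo and others such as detoxification. Of these lists, 15 had any gene that matched by symbol, 8 of them a single gene. Some lists, such as proteasome and cytoskeleton, held no symbol and so could not match. Others, such as glycolysis and transporter, held 1 symbol alone, which matched. Lists for gap and pair-rule, Hox, dorsoventral and germ plasm genes had none, as most genes carry a number and no name. What the genes of these processes did between the ages was not analysed here.

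Genes past 4-fold lay beside each other on scaffolds more often than their overall shares. Of 1452 compared neighbours of higher genes, 292 were themselves higher, 20.1% beside 13.8% of all genes. Of 683 neighbours of lower genes, 106 were lower, 15.5% beside 6.30%. Leaving out pairs that overlap gave 20.9% and 16.01%. Runs of 3 or more neighbours past 4-fold the same way numbered 32, with 24 higher runs of 82 genes and 8 lower runs of 27 genes.

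The longest run belonged to a stretch of 157984 bases on NW_011876219.1, from 246353 to 404336. Of its 11 compared models, 10 were higher, all 10 of them protein-coding single-exon models of 809 to 1550 bases, 7 on the plus and 3 on the minus strand. Each of these had no read at 0-1 hpo. They had 1029 to 7831 reads at 5-8 hpo and 1 to 14 at 2-4 hpo. The highest, LOC105221997, had 128 FPKM at 5-8 hpo against 0.114 at 2-4 hpo, 1124-fold higher (516 to 3062). LOC105221998 and LOC105221990 followed at 97.7 and 93.3 at 5-8 hpo, against 0.0430 and 0.129 at 2-4 hpo. The lowest was LOC105221996, at 8.87 at 5-8 hpo and 0.0397 at 2-4 hpo. The exception, LOC105221993, has introns, lay at 0.457 FPKM at 5-8 hpo and 1.10 at 2-4 hpo, and had reads at 0-1 hpo. Whether these neighbours have near-identical sequence, and so could share reads, was not tested.

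**Figure D5:**
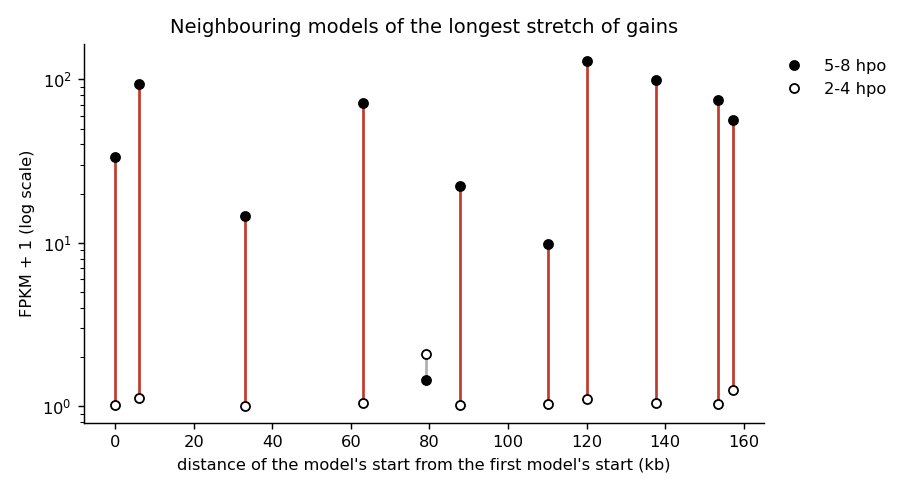
FPKM + 1 (log axis) of the 11 compared models of the stretch on NW_011876219.1 at 5-8 hpo (filled) and 2-4 hpo (open), by distance of the model's start from that of the first model. The 10 single-exon models lie near the floor of the axis at 2-4 hpo and at FPKM 8.87 to 128 at 5-8 hpo, and the grey line marks LOC105221993.

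The next runs had 5 genes each. On NW_011876339.1, 715851 to 748881, 5 plus-strand models were lower. The largest of them, Novel00293, with an exonic length of 6063 bases, had 26.4 FPKM at 5-8 hpo against 429 at 2-4 hpo, 16.3-fold lower (15.9 to 16.7), after 466 at 0-1 hpo. LOC105226141 and LOC109579523 had 1.94 and 9.93 at 5-8 hpo, against 43.5 and 119 at 2-4 hpo. Adjacent models on 1 strand can be parts of a single transcript split in the annotation, which was not tested. On NW_011876375.1, 87137 to 444670, 5 models were higher. LOC105228810, which spans 205714 bases, had 16.3 FPKM at 5-8 hpo against 0.424 at 2-4 hpo, 38.6-fold higher (31.1 to 48.5). LOC105228809 had 79.8 at 5-8 hpo against 12.4 at 2-4 hpo, 6.44-fold higher (6.08 to 6.82), and was present at 37.1 FPKM at 0-1 hpo.

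Single-exon models were frequent at the extremes. They were 8.33% of all compared genes, 17.2% of the 174 genes at least 16-fold higher and 44.4% of the 36 at least 16-fold lower. Past 4-fold the shares were 9.28% among higher and 11.1% among lower genes. The excess over all genes was smaller at 4-fold than at 16-fold. Of the 30 single-exon models at least 16-fold higher, 8 lie in the stretch on NW_011876219.1. Models without a gene number were 256 of those compared, and 39 of these were 4-fold higher and 29 lower, 15.2% and 11.3% beside 13.8% and 6.30% of all genes, so the higher share was near the background.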

How the data were processed

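Embryos of 3 ages gave 1 library each. Per the labels' protocols, the embryos went into RNAlater, Trizol was used to extract RNA, poly-T beads caught messenger RNA, and random hexamers primed the cDNA that was sequenced on an Illumina machine. Per the submitters' processing notes HISAT2 2.0.4, an aligner, and HTSeq 0.9.1, a counter, were used. No source used here gives their settings, the annotation or the genome build.

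The deposited read counts were whole numbers per gene, unnormalized, beside each model's position, strand and exonic length. FPKM is the unit per the file headers of the deposited expression table, with values scaled to transcript length and library total. The length behind them was the same in each library to within 3.62e-05%, but for 2691 of 11356 genes with reads at 5-8 hpo it was over 0.1% away from the exonic length listed. Ratios between ages are not affected, while levels of those genes depend on it. Genes missing from a library's count table had an FPKM of 0. No per-sample column was left out.

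Differences are 5-8 hpo minus 2-4 hpo on log2(FPKM + 1), and counts of genes past a fold use this scale. Folds of single genes are ratios of FPKM with 95% exact conditional binomial intervals from the counts (scipy 1.17.1, pandas 2.3.3). A library with 0 reads was set to 3 reads, which makes the fold a bound. Neither intervals nor floors cover differences between embryos or libraries, and reads without molecular identifiers are not independent molecules.

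Names and gene types were looked up in a RefSeq table of assembly ASM2337382v1. The authors may have used another build, so coordinates are theirs alone. Of 13489 identifiers 11887 matched. No sequences were used. Named in the text are the 12 largest gains and losses among genes with an informative name and an FPKM of 10 or more, and the 10 largest in log2 and in FPKM among all genes. To these come up to 6 members of each gene list at FPKM 5 or more, the 5 most abundant named genes and the 3 longest runs of neighbours. Not all are printed. Rh1, VIT1, EST3A, CP391, 41, Mfd6a, Taiman, Bab2, Nhk1, Dcp1b, FRI, the other named genes past 2-fold, LOC105221990, LOC105221993 and the noncoding genes were chosen in addition, with their values known. The genes, lists and rules were chosen with earlier results of these data known. Alternatives were other pseudocounts, filters, thresholds and scalings, and the procedures were tested on simulated counts.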

Additional observations from a re-analysis of the deposited data

How the results depend on the processing

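Dropping the filter could not change a 2-fold or 4-fold count. Genes below FPKM 1 at both ages lie within 2-fold on FPKM + 1. With those fixed counts included, 40 of 44 recomputed counts of genes past a fold or crossing a threshold were within 1.5 times the reported count. The exceptions were the genes at least 4-fold lower at 5-8 hpo, which were 783, not 513, at a pseudocount of 0.1, the genes crossing upward, 237 in place of 415 when FPKM 10 was asked at 5-8 hpo, and those crossing downward, 24 when FPKM 10 was asked at 2-4 hpo and 22 when FPKM 0.5 was the upper limit at 5-8 hpo, in place of 57. The median log2 difference, 0.11, was 0.12 with a pseudocount of 0.1, 0.042 with a filter at FPKM 5, 0.10 on the TPM scale, 0.16 with median-of-ratios scaling and 0.099 over numbered genes. Genes 4-fold higher and lower numbered 1279 and 628 on the TPM scale and 1147 and 486 with median-of-ratios scaling. Leaving out models that overlap one on the other strand, chosen after seeing the data, left 905 and 427. Of 81 single genes past 2-fold, recomputed under 4 settings each, 320 of 324 values kept their direction and stayed past 2-fold, though with a pseudocount of 0.1 the differences of genes low at 1 age grew (LOC105229981 to 9.99 in place of 6.90), and 4 kept the direction under 2-fold: LOC105231497, LOC105233227 and Cc115 under 1 or 2 scalings. The smaller pseudocount can only widen a difference, so the values recomputed with it could not drop under 2-fold. Without a pseudocount, the TPM and median-of-ratios scales shift log2 ratios by -0.042 and 0.049. Shifts of this size can bring only genes near 2-fold under it. With 1 added, genes low at 1 age moved further from 0 on the TPM scale. There LOC105229981 was at 7.67 in place of 6.90, and LOC105228470 at -6.05 in place of -5.34. Among the small differences, the signs of Cc28b and Dcp1b turned on the TPM scale and that of ND1 with median-of-ratios scaling. No paired analysis was possible because a single library stood for each age, and for the same reason no replicate could be left out. Promoter motifs were not run, as no sequences were used. Depth limits the ratios of genes with few reads at 1 age, whose intervals are wide.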

Other observations

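Long noncoding RNA genes numbered 49 among those compared. Of these, 10 were at least 4-fold higher at 5-8 hpo (20.4%) and 4 lower (8.16%), beside 13.8% and 6.30% of all genes compared, and their median log2 difference was 0.84 beside 0.11. With 49 genes these shares are near the background. The most abundant of the higher ones, LOC105226470, had 228766 reads and an FPKM of 588 at 5-8 hpo, against 17696 reads and 52.3 at 2-4 hpo, and stood at 4.05 at 0-1 hpo. LOC109579767 had 26.5 FPKM at 5-8 hpo and 0.157 at 2-4 hpo, with no read at 0-1 hpo. LOC105230391, which runs over 765937 to 845439 of its scaffold, had 20.3 at 5-8 hpo and 0.324 at 2-4 hpo. In the other direction, LOC105231389 had 285 FPKM at 5-8 hpo and 1359 at 2-4 hpo. LOC109579750 had 29.9 at 5-8 hpo and 270 at 2-4 hpo. LOC105230391 overlaps a model on the other strand, and LOC105226470 and LOC109579750 each overlap one on the same strand. How reads in the shared bases were counted is not known. Transcript types are those of the gene table, and a noncoding type there was not checked against any sequence.

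Some named genes with roles in later life were below FPKM 1 at both ages. CHS1, a chitin synthase gene, had 88 reads at 5-8 hpo and 7 at 2-4 hpo. NMDA1, a glutamate receptor gene, had 12 reads at 5-8 hpo and 6 at 2-4 hpo. Osi6 had 14 reads at 5-8 hpo and 32 at 2-4 hpo.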
